A study of Mus musculus with 8 samples.

Results

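The BCL2 family genes described here are 10 of the 47937 genes counted in bone marrow-derived dendritic cells (BMDCs) that lacked, or did not lack, 3 G-protein coupled receptor kinases (GRKs). They were taken by name: the survival genes Bcl2, Bcl2l1, Mcl1, Bcl2a1b and Bcl2a1d, the pore-forming effectors Bax and Bak1, and the BH3-only genes Bcl2l11, Bbc3 and Pmaip1. All 10 passed the filter on low counts in every comparison. The study asked how the loss of GRKs, which phosphorylate active G-protein coupled receptors, alters immune cells, and sequenced mRNA of these cultures with and without lipopolysaccharide (LPS), the bacterial ligand of TLR4. Bone marrow of adult mice on a C57BL6/J background was cultured for 8 days with 20 ng/ml GM-CSF. Knockout cells (3xGrk-/-) came from mice with Grk2 fl/fl, Grk3-/- and Grk6 fl/fl alleles and Vav1-iCre, in which Cre is active in the blood lineage from early precursors on, so that deletion preceded the culture, whereas Grk3 was deleted in the germ line. Wild-type (WT) cells came from Cre-negative mice. Each genotype was left unstimulated or received 20 ng/ml LPS for 1 day in the presence of GM-CSF, which gave 4 groups of 2 libraries and 8 libraries in all.

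The libraries held 4713305 to 6933358 counts on genes. Replicate 2 of LPS-stimulated 3xGrk-/- stood apart, with 149727 counts on Gm42418 against 17470 to 41199 in the other libraries, and its group had the largest difference between replicates, a mean chi-square per gene of 9.02 against 1.59 to 3.07. Leaving out either library of this group gave 5 in place of 7 calls among the 10 genes between the genotypes with LPS (Bcl2a1b and Bax were lost), and the difference of Bcl2 with LPS was -2.00 on the log2 scale without replicate 2 and -2.88 without replicate 1. In unstimulated 3xGrk-/- cells Grk2 was 2.15-fold, Grk6 2.28-fold and Grk3 1.28-fold lower than in WT, and with LPS the folds were 3.70, 2.91 and 1.33. Each targeted gene was thus lower where its label says so. A gene count also takes in exons that a deletion leaves in place. The study describes its RNA as extracted in technical triplicates, and no label says that the libraries of a group came from separate mice or cultures. All p-values below therefore measure the spread between libraries, which may be technical: the common biological coefficient of variation was 0.0306 among unstimulated and 0.0573 among LPS-stimulated libraries. Among all genes, 44.7% of 12000 differed between the genotypes without LPS and 48.6% of 11830 genes with LPS, and the counts of BCL2 family genes called are to be read against such shares. BMDC cultures hold dendritic cells and macrophage-like cells side by side, and in RNA of a whole culture fewer cells of a type and less RNA per cell cannot be told apart.

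BCL2 family proteins decide at the outer mitochondrial membrane whether a cell enters apoptosis. The survival proteins BCL2, BCL-XL, MCL1 and A1 hold the effectors BAX and BAK in check, and BH3-only proteins such as BIM, PUMA and NOXA bind and block the survival proteins; free BAX and BAK then open pores that release cytochrome c and set off the caspases. In myeloid cells GM-CSF and Toll-like receptor signals are known inducers of survival members, among them A1 and BCL-XL, whereas BIM is known to limit the lifespan of activated dendritic cells.

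Most BCL2 family genes differed between the genotypes, and for Bcl2l1 and Bcl2l11 the direction turned with LPS, although the call of Bcl2l11 without LPS was lost at an imposed coefficient of variation of 0.1 (adjusted p = 0.109). Without LPS, 4 of the 10 genes were higher in 3xGrk-/- than in WT cells (Bcl2l1, Mcl1, Bax and Bak1) and 4 were lower (Bcl2, Bcl2l11, Bbc3 and Pmaip1) by edgeR's quasi-likelihood test with a Benjamini-Hochberg adjusted p under 0.05 over all genes, against a background of 22.1% of all genes higher and 22.7% lower. With LPS, 1 gene was higher (Bcl2l11) and 6 were lower (Bcl2, Bcl2l1, Bcl2a1b, Bcl2a1d, Bax and Bbc3), against 24.7% and 24.0% of all genes. Of the genes higher without LPS, Mcl1, Bax and Bak1 lost their calls with library size alone as scaling (log2 0.036, 0.084 and 0.052, adjusted p = 0.455, 0.210 and 0.450), and Bcl2a1d without LPS (-0.11, adjusted p = 0.0266) and Bak1 with LPS (-0.20, adjusted p = 0.0156) were then called lower. The median difference of the 10 genes was 0.040 on the log2 scale without LPS and -0.24 with LPS, where the median of all genes was -0.0017 and -0.0066. Libraries of the genotypes did not overlap for 9 of the 10 genes without LPS and for all 10 with LPS, which 69.1% and 72.6% of all genes also did.

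LPS itself raised 6 of the 10 genes and lowered 2 in WT cells, where 60.3% of 12541 genes were called, 29.5% higher and 30.8% lower. In 3xGrk-/- cells it raised 6 and lowered 3, where 55.4% of genes were called, 28.0% higher and 27.4% lower, and with library size alone as scaling it raised 4 and lowered 4, against 5 and 3 in WT. Libraries with and without LPS did not overlap for 8 of the 10 genes in WT and 9 in 3xGrk-/- cells, against 78.2% and 77.6% of all genes. The response differed between the genotypes, as an interaction of genotype and LPS, for 9 of the 10 genes against 32.5% of all genes. In 7 of them the difference was negative (16.0% of all genes) and in 2 positive (16.5%). The median size of the interaction was 0.56 on the log2 scale for the 10 genes and 0.35 for all genes. With a coefficient of variation of 0.1 imposed, 5 of the interactions were called. The genes were chosen with earlier results of these data known, so the comparison with all genes is a description.

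**Figure D1:**
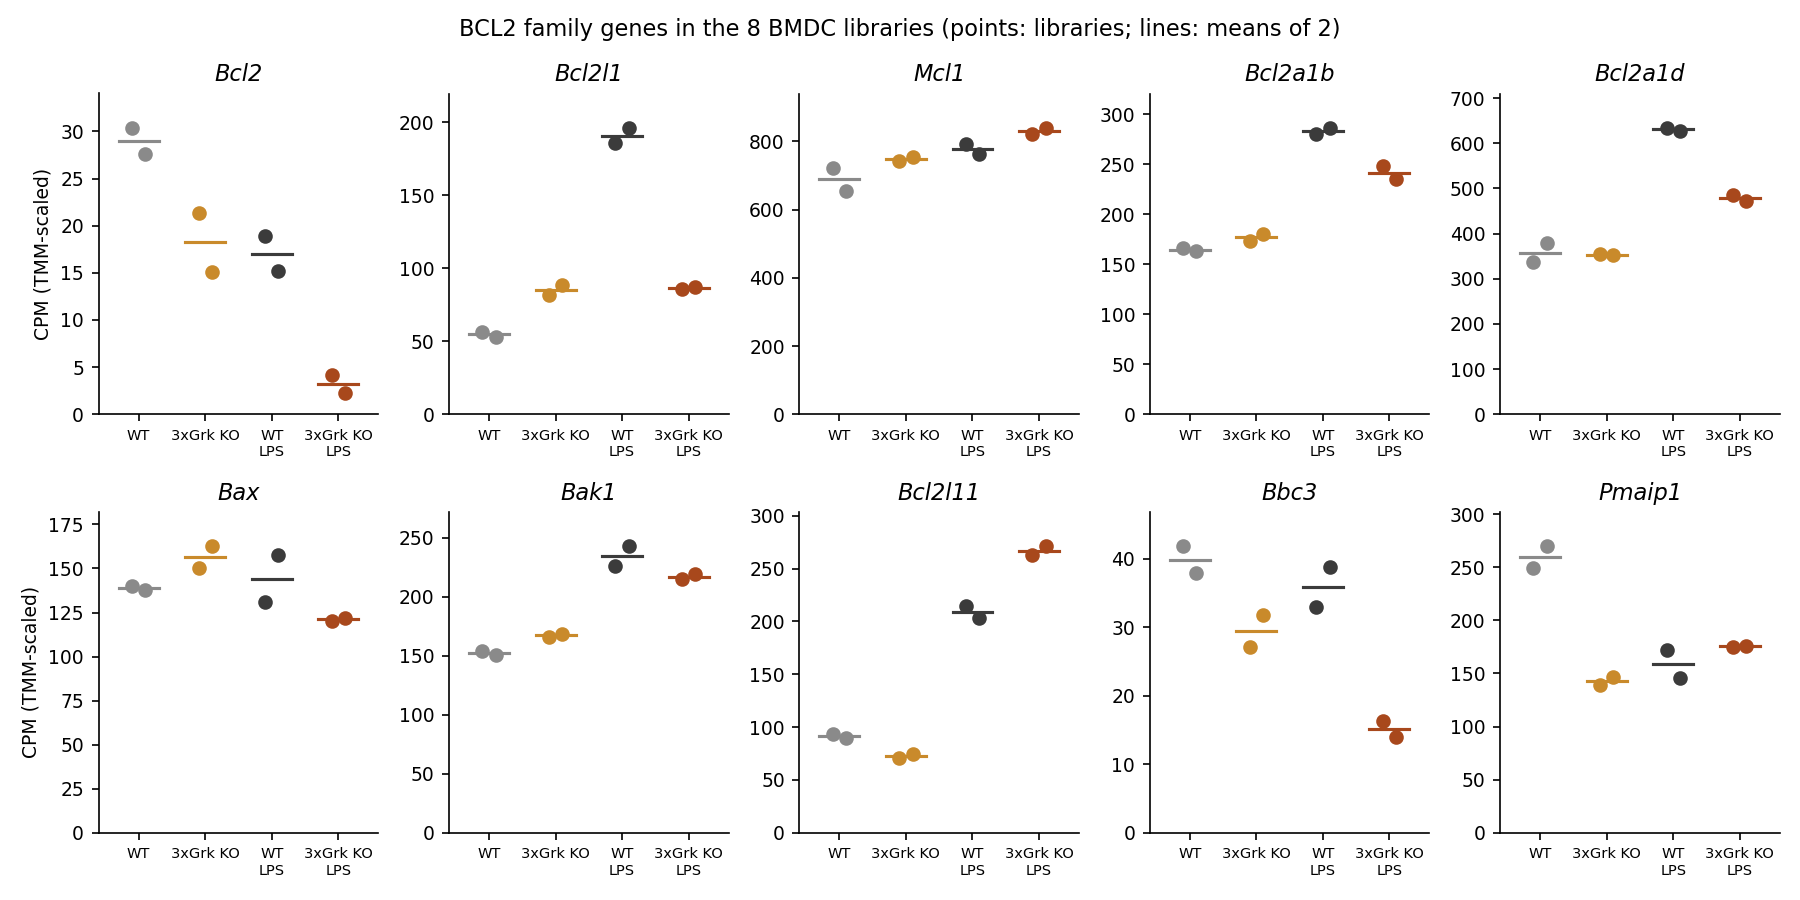
Level of each of the 10 BCL2 family genes in CPM (counts over the TMM-scaled library size), with a point for each library and a line at the mean of the 2 libraries of a group; WT and 3xGrk KO cells are shown without and with LPS, and every axis starts at 0. Bcl2 falls to 4.18 and 2.27 CPM in LPS-stimulated 3xGrk KO libraries, and Bcl2l1 is high only in LPS-stimulated WT libraries, at 185 and 196 CPM.

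Levels of different genes are compared per kilobase of exon, as TPM, counts per kilobase scaled to the same total in every library. In unstimulated WT cells Bcl2a1d had the highest level, 1424 ± 114 TPM (SD, n = 2). Bcl2a1b with 692 ± 11.1 TPM and Mcl1 with 692 ± 48.4 TPM followed and did not differ beyond their spread. The death genes Pmaip1 (326 ± 17.5 TPM) and Bax (303 ± 3.40 TPM) lay next, and Bak1 stood at 218 ± 3.84 TPM. Libraries of Pmaip1 and Bax did not overlap, but their order holds only with all exons as length. With the longest transcript as length the share of Bax among the 5 death genes was 38.8%, above the 29.2% of Pmaip1. At the low end were Bbc3 with 64.5 ± 4.50 TPM, Bcl2l1 and Bcl2l11 with 40.9 ± 1.92 and 39.2 ± 1.10 TPM, and Bcl2 with 10.9 ± 0.749 TPM. Bcl2l1 and Bcl2l11 did not differ beyond their spread with all exons as length, which need not hold with another length. In LPS-stimulated 3xGrk-/- cells Bcl2a1d again led with 1508 ± 150 TPM and Bcl2 was last with 0.971 ± 0.475 TPM.

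Bcl2 (chr1:106538178-106714274, minus strand, GRCm38), the founding survival gene of the family, was low in this culture and lowest in stimulated knockout cells. In CPM, counts divided by the TMM-scaled library size, it stood at 30.4 and 27.6 in unstimulated WT, 21.4 and 15.1 in unstimulated 3xGrk-/-, 18.9 and 15.2 in LPS-stimulated WT and 4.18 and 2.27 in LPS-stimulated 3xGrk-/- libraries, the last pair resting on 23 and 14 counts. Each group lay below the one it is compared with, without overlap. The difference between the genotypes was -0.64 ± 0.13 (log2, SE, adjusted p = 3.28e-06) without LPS, a 1.56-fold lower level, and -2.41 ± 0.26 (adjusted p = 7.97e-08) with LPS, a 5.30-fold lower level. LPS lowered Bcl2 in both genotypes, by 1.71-fold in WT (log2 -0.77, adjusted p = 9.90e-05) and by 5.78-fold in 3xGrk-/- cells (log2 -2.53, adjusted p = 8.48e-10). The interaction of -1.76 ± 0.31 had an adjusted p of 4.56e-05. Without replicate 2 of unstimulated 3xGrk-/- the difference without LPS was -0.43, still past the threshold.

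The promoter of Bcl2, the gene with the largest difference between the genotypes with LPS, is shown as the 250 bases before its RefSeq transcription start (GRCm38.p6, chr1:106714291-106714540, minus strand), with each GGGCGG on either strand, the letters of a GC box, in capitals.
Bcl2: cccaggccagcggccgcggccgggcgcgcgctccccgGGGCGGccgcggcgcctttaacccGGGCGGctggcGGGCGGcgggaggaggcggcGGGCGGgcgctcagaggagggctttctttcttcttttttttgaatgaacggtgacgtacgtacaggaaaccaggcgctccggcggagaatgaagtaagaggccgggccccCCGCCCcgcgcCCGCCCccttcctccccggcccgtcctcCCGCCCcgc
It holds 7 such matches in 250 bases, of which 74.8% are G or C. GGGCGG or its complement occurs in 32.7% of 32851 RefSeq promoter windows of the same length.

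Bcl2l1 (chr2:152780668-152831728, minus strand), which encodes BCL-XL, changed direction with LPS. Its levels were 56.4 and 52.8 CPM in unstimulated WT, 81.7 and 88.7 in unstimulated 3xGrk-/-, 185 and 196 in LPS-stimulated WT and 85.4 and 87.1 in LPS-stimulated 3xGrk-/- libraries. WT libraries with LPS stood above all others, and the 3xGrk-/- libraries with and without LPS overlapped. Without LPS the gene was 1.56-fold higher in 3xGrk-/- cells (log2 0.64 ± 0.08, adjusted p = 1.25e-15), and with LPS it was 2.21-fold lower (log2 -1.15 ± 0.07, adjusted p = 2.55e-11). LPS raised it 3.51-fold in WT cells (log2 1.81 ± 0.07, adjusted p = 2.30e-18). In 3xGrk-/- cells the difference was 0.020 ± 0.074 (adjusted p = 0.834), and it was a call of -0.20 (adjusted p = 0.0247) where library size alone was used as scaling, which itself moved the median response of all genes to -0.23. The interaction of -1.79 ± 0.10 (adjusted p = 9.10e-14) exceeded in size that of 94.3% of all genes.

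Of the 3 RefSeq start sites of Bcl2l1, the middle one is shown because its window holds a match to the NF-kB motif (chr2:152830718-152830967, minus strand, GRCm38.p6), in capitals.
Bcl2l1: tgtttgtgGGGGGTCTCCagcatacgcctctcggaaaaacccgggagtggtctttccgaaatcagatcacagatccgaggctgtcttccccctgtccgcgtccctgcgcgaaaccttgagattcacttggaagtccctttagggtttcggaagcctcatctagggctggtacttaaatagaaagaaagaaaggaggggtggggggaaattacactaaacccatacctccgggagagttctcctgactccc
The motif has a match in 7.25% of all promoter windows and none in the windows of the other 2 Bcl2l1 start sites. The counts are per gene and do not say which start site was used.

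Mcl1 (chr3:95658788-95663176, plus strand), a short-lived survival protein on which myeloid cells depend, varied least of the 10 genes. Its levels were 722 and 655 CPM in unstimulated WT, 741 and 754 in unstimulated 3xGrk-/-, 793 and 762 in LPS-stimulated WT and 822 and 839 in LPS-stimulated 3xGrk-/- libraries. The libraries of the 4 groups lay within 1 range of 655 to 839 CPM, the knockout pair just above the WT pair in each condition. The difference of 0.12 ± 0.04 without LPS passed the threshold (adjusted p = 0.00272) but was 0.048 (adjusted p = 0.431) without replicate 2 of unstimulated WT and 0.19 without replicate 1. With LPS it was 0.095 ± 0.056 (adjusted p = 0.173), and 0.13 (adjusted p = 0.0215) without replicate 1 of LPS-stimulated WT. The responses to LPS, 0.18 in WT and 0.15 in 3xGrk-/- cells, turned to -0.039 and -0.066 with library size alone as scaling, or 0.19 and 0.16 relative to the median of all genes there. The former was 0.11 (adjusted p = 0.132) without replicate 2 of unstimulated WT, and the latter lost its call without replicate 1 of unstimulated 3xGrk-/- (0.14, adjusted p = 0.0842) or without replicate 2 of LPS-stimulated 3xGrk-/- (0.14, adjusted p = 0.0703). The interaction was -0.024 ± 0.070 (adjusted p = 0.835), which made Mcl1 the only gene of the 10 whose response was not called different.

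Bcl2a1b (chr9:89199209-89207827, plus strand) and Bcl2a1d (chr9:88723285-88731914, minus strand) are mouse copies of A1, a survival gene that LPS and GM-CSF are known to induce. Their coding sequences of 516 bases each differ at 6 bases (98.8% identity), and Bcl2a1a, a further copy, differs from them at 11 and 7 bases. The first 120 coding bases, from the GENCODE M21 transcripts, are shown to let the copies be compared, with the 3 bases that differ in capitals.
Bcl2a1b: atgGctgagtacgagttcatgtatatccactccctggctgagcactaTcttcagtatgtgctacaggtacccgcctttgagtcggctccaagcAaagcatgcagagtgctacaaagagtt
Bcl2a1d: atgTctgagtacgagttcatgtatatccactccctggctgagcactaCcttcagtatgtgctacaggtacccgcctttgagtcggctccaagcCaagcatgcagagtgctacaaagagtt
Of all stretches of 50 bases in the transcript of Bcl2a1d, 79.5% occur unchanged in another copy, and 57.6% of those of Bcl2a1b. Reads may thus be split between copies, and the values of either gene are uncertain. Bcl2a1b also shares exons with the predicted gene Gm29094, which had 19 counts in all libraries together.

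Both copies rose with LPS, and the rise was smaller in 3xGrk-/- cells by the test of the interaction. Bcl2a1b had 166 and 163 CPM in unstimulated WT, 173 and 180 in unstimulated 3xGrk-/-, 280 and 287 in LPS-stimulated WT and 249 and 235 in LPS-stimulated 3xGrk-/- libraries. For Bcl2a1d the levels were 337 and 378, 355 and 352, 634 and 628, and 486 and 472 CPM in the same order. LPS-stimulated libraries stood above all unstimulated ones for both genes, and WT above 3xGrk-/- among the former. LPS raised Bcl2a1b by 0.78 in WT and 0.45 in 3xGrk-/- cells on the log2 scale, and Bcl2a1d by 0.82 and 0.44 (largest adjusted p of the 4 responses 8.18e-08), where library size alone as scaling gave 0.23 and 0.22 for the responses in 3xGrk-/- cells. With LPS Bcl2a1d was 1.32-fold lower in 3xGrk-/- cells (log2 -0.40 ± 0.06, adjusted p = 6.51e-06) and Bcl2a1b 1.17-fold lower (log2 -0.23 ± 0.06, adjusted p = 0.00372). The latter call was lost without replicate 1 (log2 -0.26, adjusted p = 0.0528) or replicate 2 (log2 -0.18, adjusted p = 0.244) of LPS-stimulated 3xGrk-/-. Without LPS neither differed by the test (0.10 ± 0.05, adjusted p = 0.0934, and -0.023 ± 0.042, adjusted p = 0.694), and with the copies summed or without replicate 2 of unstimulated WT the sign of the Bcl2a1d difference was positive, at 0.013 and 0.064. The interactions were -0.33 (adjusted p = 0.00150) and -0.38 (adjusted p = 0.000276), and both calls were lost at an imposed coefficient of variation of 0.1 (adjusted p = 0.325 and 0.232).

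**Figure D2:**
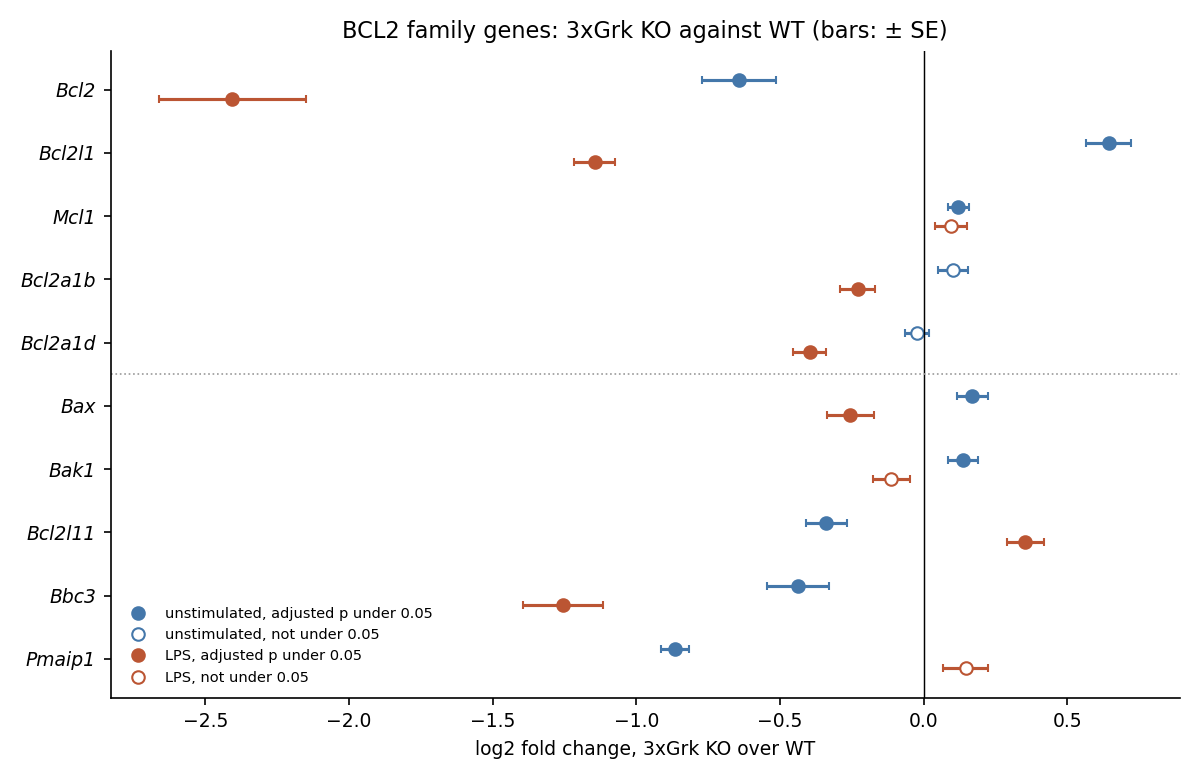
Difference between 3xGrk KO and WT cells for each gene on the log2 scale, without LPS in blue and with LPS in red; bars are ± SE, filled points have an adjusted p under 0.05 and the dotted line parts survival genes from death genes. Bcl2l1 goes from 0.64 to -1.15 and Bcl2l11 from -0.34 to 0.35, and Bcl2 with LPS lies farthest from 0 at -2.41.

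The effectors Bax (chr7:45461697-45466898, minus strand) and Bak1 (chr17:27019810-27029009, minus strand), whose proteins form the pore, differed little between the genotypes, and LPS raised Bak1. Bax stood at 140 and 138 CPM in unstimulated WT, 150 and 163 in unstimulated 3xGrk-/-, 131 and 158 in LPS-stimulated WT and 120 and 122 in LPS-stimulated 3xGrk-/- libraries. Replicate 2 of LPS-stimulated WT lay apart from its partner and overlapped the unstimulated range. The difference between the genotypes was 0.17 ± 0.05 (adjusted p = 0.00596) without and -0.26 ± 0.08 (adjusted p = 0.0136) with LPS. The former lost its call without replicate 2 of unstimulated WT (0.16, adjusted p = 0.0717) or of unstimulated 3xGrk-/- (0.12, adjusted p = 0.179). The latter was -0.10 (adjusted p = 0.245) without replicate 2 of LPS-stimulated WT, and lost its call without replicate 1 or 2 of LPS-stimulated 3xGrk-/- (-0.23, adjusted p = 0.129, and -0.25, adjusted p = 0.107); both calls were lost with DESeq2 (adjusted p = 0.175 and 0.141). LPS lowered Bax by 1.29-fold in 3xGrk-/- cells (log2 -0.37, adjusted p = 9.97e-05), and the log2 value was -0.59 with library size alone as scaling. In WT the response was 0.059 (adjusted p = 0.497), 0.19 (adjusted p = 0.0104) without replicate 1 and -0.080 without replicate 2 of LPS-stimulated WT, and the interaction of -0.43 (adjusted p = 0.00169) was -0.28 without the latter library.

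Bak1 had 154 and 151 CPM in unstimulated WT, 166 and 169 in unstimulated 3xGrk-/-, 226 and 243 in LPS-stimulated WT and 215 and 219 in LPS-stimulated 3xGrk-/- libraries. LPS-stimulated libraries of both genotypes stood above unstimulated ones. LPS raised Bak1 by 0.62 on the log2 scale in WT (1.54-fold, adjusted p = 1.66e-10) and by 0.38 in 3xGrk-/- cells (1.30-fold, adjusted p = 2.10e-06), or by 0.41 and 0.16 with library size alone as scaling. Between the genotypes it differed by 0.14 ± 0.05 (adjusted p = 0.0246) without and by -0.11 ± 0.06 (adjusted p = 0.157) with LPS. Its responses to LPS passed the test whichever library was left out, whereas the calls on the genotypes and on the interaction did not. The call without LPS was lost without replicate 2 of unstimulated WT (0.12, adjusted p = 0.186) or either 3xGrk-/- library (0.15, adjusted p = 0.0654, and 0.13, adjusted p = 0.108), the difference with LPS passed without replicate 1 of LPS-stimulated WT (-0.15, adjusted p = 0.0199) and was -0.050 without replicate 2, and the interaction of -0.25 (adjusted p = 0.0173) was lost on leaving out any unstimulated library or either LPS-stimulated 3xGrk-/- library (adjusted p of up to 0.101). Exons of Ggnbp1 overlap Bak1 on the opposite strand, with 91 counts in all libraries together.

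Bcl2l11 (chr2:128126038-128162547, plus strand) encodes BIM, a BH3-only protein that binds every survival member, and was the 1 of the 3 BH3-only genes that LPS raised most. Its levels were 93.4 and 90.0 CPM in unstimulated WT, 70.5 and 74.5 in unstimulated 3xGrk-/-, 215 and 203 in LPS-stimulated WT and 262 and 271 in LPS-stimulated 3xGrk-/- libraries. Knockout libraries lay below WT without LPS and above WT with LPS, without overlap. It was 1.26-fold lower in 3xGrk-/- cells without LPS (log2 -0.34 ± 0.07, adjusted p = 1.05e-05) and 1.28-fold higher with LPS (log2 0.35 ± 0.06, adjusted p = 9.06e-05). LPS raised it 2.28-fold in WT (log2 1.19 ± 0.06, adjusted p = 1.16e-15) and 3.69-fold in 3xGrk-/- cells (log2 1.88 ± 0.06, adjusted p = 3.78e-20). The interaction of 0.69 ± 0.09 had an adjusted p of 4.92e-07.

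Bbc3 (chr7:16308393-16318205, plus strand) encodes PUMA, a BH3-only protein and p53 target, and moved the other way from Bcl2l11 with LPS. It stood at 41.8 and 38.0 CPM in unstimulated WT, 27.1 and 31.8 in unstimulated 3xGrk-/-, 33.0 and 38.8 in LPS-stimulated WT and 16.4 and 13.9 in LPS-stimulated 3xGrk-/- libraries. The 3xGrk-/- libraries lay below the WT ones in each condition, and those with LPS lay lowest. The difference was -0.44 ± 0.11 (1.35-fold lower, adjusted p = 0.000194) without LPS, a call that DESeq2 did not make (adjusted p = 0.104), and -1.26 ± 0.14 (2.39-fold lower, adjusted p = 1.69e-07) with LPS. LPS lowered Bbc3 by 1.94-fold in 3xGrk-/- cells (log2 -0.96, adjusted p = 1.56e-06). In WT the response was -0.14 ± 0.11 (adjusted p = 0.299), which library size alone as scaling turned into a call of -0.35 (adjusted p = 0.00787), and the interaction was -0.82 ± 0.18 (adjusted p = 0.000744).

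The first of the 3 RefSeq start sites of Bbc3 (chr7:16309333-16309582, plus strand, GRCm38.p6) is shown because it is the only other window of the genes with a match to the NF-kB motif, here 2 overlapping matches, in capitals.
Bbc3: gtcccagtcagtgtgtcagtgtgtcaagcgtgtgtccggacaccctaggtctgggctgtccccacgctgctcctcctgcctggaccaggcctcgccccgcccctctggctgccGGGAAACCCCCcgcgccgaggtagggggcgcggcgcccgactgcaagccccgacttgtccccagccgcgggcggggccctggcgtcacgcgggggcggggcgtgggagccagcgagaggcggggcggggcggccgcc
A match is a description of the letters and not a binding site. Of the 10 genes, 9 had a promoter window that was searched, and of these Bcl2, Mcl1, Bcl2a1b, Bcl2a1d, Bax, Bcl2l11 and Bbc3 held GGGCGG on either strand, Bcl2l11 and Bbc3 held GTAAACA, a FOXO motif found in 3.17% of all windows, Bax held the p53 decamer, found in 7.13%, and none held TATAAA, found in 12.4%.

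Pmaip1 (chr18:66458533-66465565, plus strand) encodes NOXA, a BH3-only protein that binds MCL1 and A1, and differed between the genotypes mainly without LPS. Its levels were 250 and 270 CPM in unstimulated WT, 139 and 147 in unstimulated 3xGrk-/-, 172 and 146 in LPS-stimulated WT and 175 and 176 in LPS-stimulated 3xGrk-/- libraries. Unstimulated WT libraries stood above all others. Without LPS the gene was 1.82-fold lower in 3xGrk-/- cells (log2 -0.87 ± 0.05, adjusted p = 1.45e-66). With LPS the difference was 0.15 ± 0.08 (adjusted p = 0.129), and 0.28 (adjusted p = 0.000406) without replicate 1 and 0.041 (adjusted p = 0.613) without replicate 2 of LPS-stimulated WT. LPS lowered Pmaip1 in WT by 1.64-fold (log2 -0.72, adjusted p = 1.74e-10) and raised it in 3xGrk-/- cells by 1.23-fold (log2 0.30, adjusted p = 0.000532), though the latter was 0.078 (adjusted p = 0.339) with library size alone as scaling, or 0.30 relative to the median of all genes. The interaction of 1.01 ± 0.09 (adjusted p = 1.23e-09) was the largest positive one of the 10 genes.

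**Figure D3:**
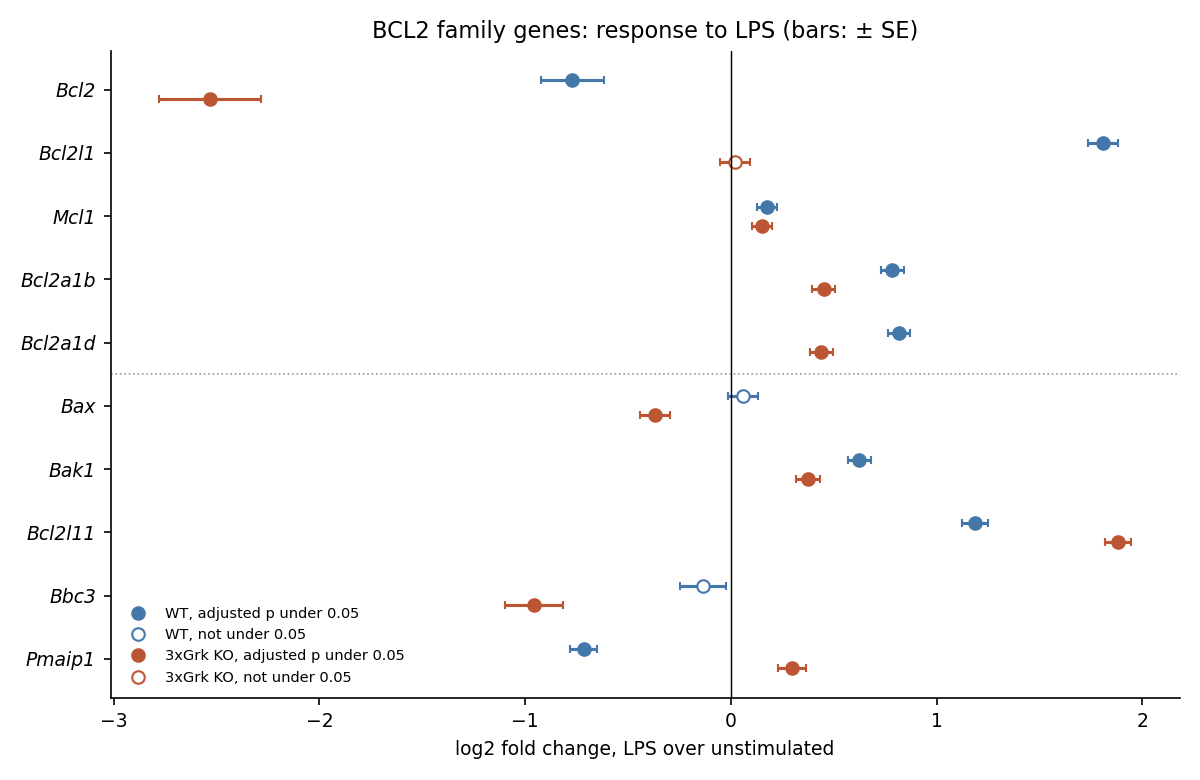
Response to LPS of each gene on the log2 scale in WT (blue) and 3xGrk KO cells (red); bars are ± SE, filled points have an adjusted p under 0.05 and the dotted line parts survival genes from death genes. The response of Bcl2l1 is 1.81 in WT and 0.020 in 3xGrk KO cells, that of Bcl2 -0.77 and -2.53, and that of Pmaip1 -0.72 and 0.30.

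The makeup of the survival set was computed as the share of each of its 5 genes in their summed counts per kilobase, a description with no test. Bcl2a1d held 49.8% ± 3.09 (SD, n = 2) in unstimulated WT and 54.2% ± 0.198 in LPS-stimulated WT cells, and 47.3% ± 0.654 and 49.9% ± 0.167 in 3xGrk-/- cells. Mcl1 held 24.2% ± 2.13 and 25.3% ± 0.109 without LPS in WT and 3xGrk-/- cells. With LPS its share was 16.9% ± 0.414 in WT and 21.8% ± 0.716 in 3xGrk-/- cells. Bcl2l1 made up 1.43% ± 0.0931 of the set in unstimulated WT and 3.08% ± 0.132 in LPS-stimulated WT, against 2.15% ± 0.108 and 1.69% ± 0.0530 in 3xGrk-/- cells. With the longest transcript as length in place of all exons these shares were 2.52%, 5.38%, 3.77% and 2.98%. Bcl2 made up 0.381% ± 0.0331, 0.231% ± 0.0580, 0.138% ± 0.0207 and 0.0315% ± 0.0127 in unstimulated WT, unstimulated 3xGrk-/-, LPS-stimulated WT and LPS-stimulated 3xGrk-/- cells. Among the 5 death genes the share of Pmaip1 was 34.3% ± 1.67 in unstimulated WT and between 20.1% and 23.6% in the other groups. In unstimulated WT it lay above that of Bax, 31.9% ± 0.513, but below it with the longest transcript as length (29.2% against 38.8%). That of Bcl2l11 was 4.13% ± 0.135 without and 8.98% ± 0.700 with LPS in WT, and 3.70% ± 0.00802 and 12.2% ± 0.177 in 3xGrk-/- cells.

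**Figure D4:**
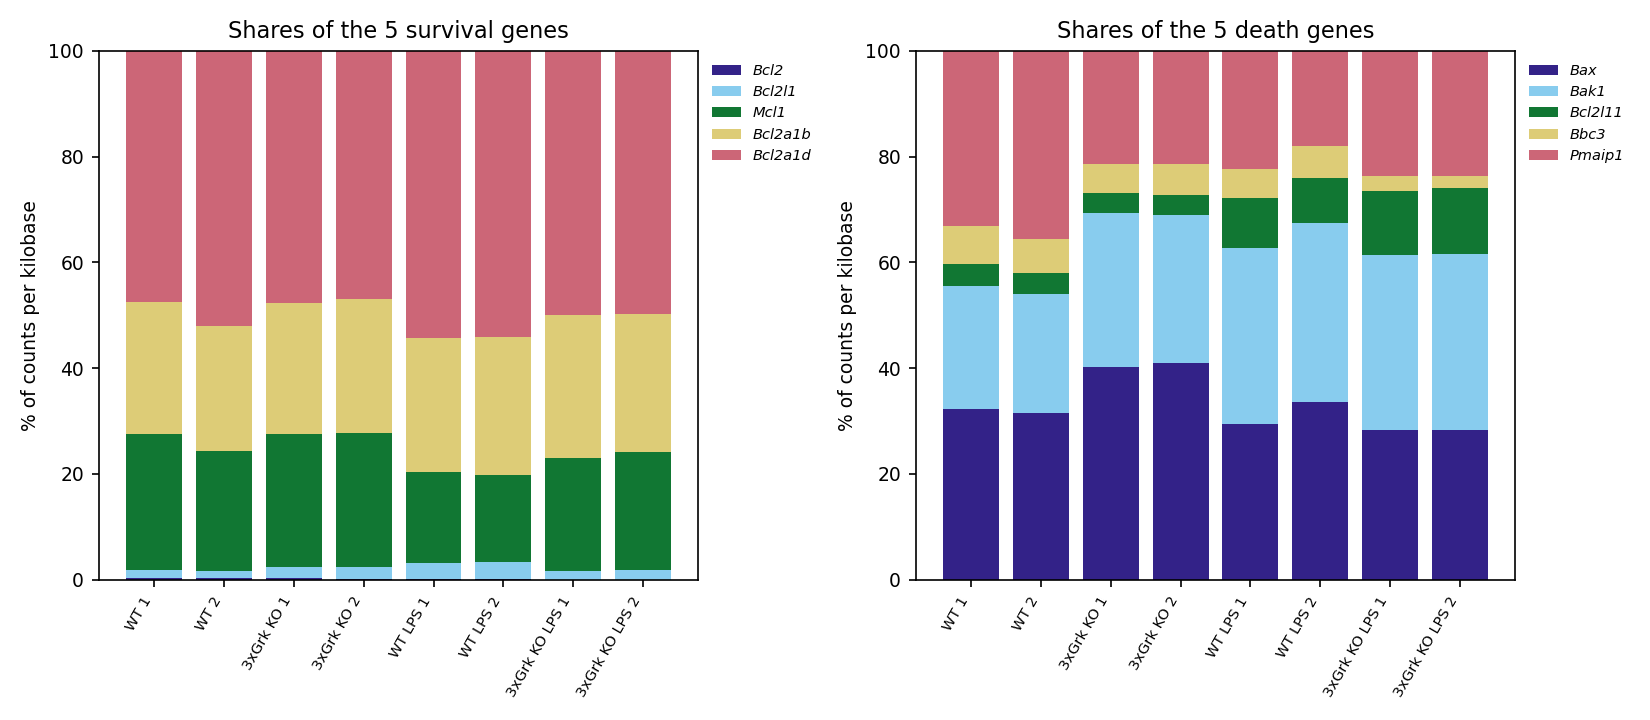
Share of each gene in the summed counts per kilobase of the 5 survival genes (left) and the 5 death genes (right) in each of the 8 libraries, as stacked bars that add up to 100%. The A1 copies and Mcl1 fill nearly all of the left bars, with Bcl2l1 at most 3.18% at this length (all exons), and on the right Bcl2l11 is widest in LPS-stimulated 3xGrk KO libraries.

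The rest of the BCL2 family holds 16 further genes, of which 11 passed the filter. Without LPS, 4 of the 11 were higher in 3xGrk-/- cells and 3 lower, against 22.1% and 22.7% of all genes, and with LPS 5 were higher and 2 lower, against 24.7% and 24.0% (3 and 4, and 3 and 2, with library size alone as scaling). The BH3-only genes Bmf and Bid were higher with LPS, as Bcl2l11 was. Bmf had 104 and 97.6 CPM in LPS-stimulated WT and 161 and 168 CPM in LPS-stimulated 3xGrk-/- libraries (log2 0.71, adjusted p = 6.77e-08), and Bid 20.7 and 19.0 against 27.4 and 23.7 CPM (log2 0.36, adjusted p = 0.0361). Bnip3, a mitophagy receptor of the family that hypoxia is known to induce, had 9.98 and 11.1 CPM against 28.9 and 33.7 CPM, the largest rise of the list (log2 1.57, adjusted p = 2.46e-08). LPS raised it in 3xGrk-/- cells (1.03) and not detectably in WT (-0.061, adjusted p = 0.789). Bcl2l14 went from -1.17 without to 0.49 with LPS (interaction 1.66, adjusted p = 1.87e-05), a change of direction like that of Bcl2l11. The copy Bcl2a1a was lower with LPS (-0.35), as Bcl2a1b and Bcl2a1d were, and so was Bcl2a1c (-1.65), which did not exceed 3.56 CPM.

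Without LPS the other genes called were Bnip3 (0.48), Bnip3l (0.36), Bmf (0.32) and Bcl2l2 (0.29), a survival gene, on the higher side, and Bid (-0.45) and Bcl2l13 (-0.25) on the lower side, and Bnip3l was also higher with LPS (0.30). In WT cells LPS raised Bcl2a1a (0.49) and Bcl2l2 (0.48) and lowered Bmf (-0.77), Bid (-0.65) and Bcl2l13 (-0.23), where 29.5% of all genes were raised and 30.8% lowered. In 3xGrk-/- cells 4 genes were higher and 2 lower with LPS, against 28.0% and 27.4% of all genes: Bcl2l14 (1.74), Bnip3, Bcl2l2 (0.32) and Bcl2a1a (0.14, but -0.076 with library size alone as scaling) rose, and Bmf (-0.38) and Bnip3l (-0.17) fell. That scaling gave 2 higher and 3 lower in 3xGrk-/- cells, and 2 higher and 4 lower in WT. Interactions were called for Bnip3 (1.09), Bid (0.81), Bmf (0.39) and Bcl2a1a (-0.35) besides Bcl2l14, and for 32.5% of all genes. Bad and Bcl2l12 were called in no comparison. Bcl2l10 and Hrk had no counts in any library, and Bok, Bik and Bcl2l15 were too low to test, at no more than 1.15 CPM.

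Downstream of the mitochondrion, 11 apoptosome and executioner genes are described. Without LPS 3 were higher in 3xGrk-/- cells (Apaf1 0.28, Htra2 0.28 and Diablo 0.27) and 1 was lower (Parp1 -0.33), where 22.1% and 22.7% of all genes were. With LPS 2 were higher, cytochrome c (Cycs 0.62) and the protease gene Casp6 (0.56), and 3 were lower (Diablo -1.43, Apaf1 -0.25 and Htra2 -0.22), where 24.7% and 24.0% of all genes were. Diablo encodes SMAC, which is released with cytochrome c and blocks inhibitors of apoptosis. Like Bcl2l1 it was called higher without and lower with LPS: it stood at 61.1 and 60.1 CPM in unstimulated WT, 77.3 and 68.2 in unstimulated 3xGrk-/-, 157 and 154 in LPS-stimulated WT and 55.8 and 59.8 in LPS-stimulated 3xGrk-/- libraries. LPS raised it by 1.36 in WT and changed it by -0.33 in 3xGrk-/- cells on the log2 scale (interaction -1.69, adjusted p = 8.90e-13). In WT cells LPS raised 4 of the 11 genes, led by Apaf1 (1.37) and Diablo, and lowered 3 (Dffa -0.48, Parp1 -0.48 and Htra2 -0.29), against 29.5% and 30.8% of all genes. In 3xGrk-/- cells it raised 2, Casp6 (1.11) and Apaf1 (0.84), and lowered 6, led by Endog (-0.90), Htra2 (-0.79) and Dffb (-0.59), against 28.0% and 27.4%. Endog rested on low counts, 32 and 18 without and 13 and 12 with LPS, and Dffb on 78 and 49 against 35 and 44. With library size alone as scaling the WT response turned to 2 raised and 6 lowered and that in 3xGrk-/- cells was 2 and 7, and between the genotypes 3 were higher and 3 lower without LPS and 2 and 4 with LPS. Interactions were positive for Casp6 (0.84) and negative for Diablo, Apaf1 (-0.53) and Htra2 (-0.50), where 16.5% of all genes were positive and 16.0% negative.

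Among 8 inhibitor of apoptosis genes, 4 were higher and 2 lower in 3xGrk-/- cells without LPS, and 4 were higher and 4 lower with LPS, where 44.7% and 48.6% of all genes were called. The higher genes were in the main Naip2 (0.81 without and 1.46 with LPS), Naip6 (0.43 and 0.59) and Naip5 (0.35 and 0.37), whose proteins are known as sensors of bacterial flagellin and secretion systems and are close copies of each other. Birc5, which encodes survivin and is expressed in dividing cells, was lower (-2.77 and -1.40). Birc2, a ubiquitin ligase of the TNF receptor complex, changed direction as Bcl2l1 did, from 0.32 without to -0.52 with LPS (interaction -0.84, adjusted p = 2.33e-09). With LPS Xiap (-0.37), a direct inhibitor of caspases, and Birc3 (-0.19) were also lower. In WT cells LPS raised 4 of the genes, led by Birc2 (0.62), and lowered Birc5 (-3.24), against 29.5% and 30.8% of all genes, and in 3xGrk-/- cells it raised 5, led by Naip2 (0.78), and lowered Birc5 (-1.88) and Birc2 (-0.23), against 28.0% and 27.4%. The rises of Xiap (0.21) and Birc3 (0.14) in 3xGrk-/- cells turned to -0.0074 and -0.074 with library size alone as scaling, which left 2 genes raised and 3 lowered there, and 3 raised and 2 lowered in WT.

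The death receptor and necroptosis list holds 13 genes, of which 11 were tested without and 12 with LPS. Without LPS 5 were higher in 3xGrk-/- cells and 1 lower (Fas -0.23), and with LPS 6 were higher and 2 lower (Tnfrsf10b -0.79 and Casp8 -0.34), against 22.1% and 22.7% of all genes without and 24.7% and 24.0% with LPS. Mlkl and Ripk3, the executor of necroptosis and the kinase that activates it, were higher in both conditions. Mlkl had 4.20 and 5.33 CPM in unstimulated WT, 13.0 and 14.4 in unstimulated 3xGrk-/-, 14.0 and 17.9 in LPS-stimulated WT and 74.0 and 75.1 in LPS-stimulated 3xGrk-/- libraries (1.49 without and 2.21 with LPS). Ripk3 differed by 1.26 and 1.08, and Tnfrsf1a, a receptor of TNF, by 0.26 and 1.39. LPS raised Tnfsf10 (3.92 in WT and 4.18 in 3xGrk-/- cells), Mlkl (1.73 and 2.45) and Cflar (1.20 and 1.40), which encodes the caspase-8 inhibitor cFLIP, in both genotypes, among 5 genes raised in WT and 6 in 3xGrk-/- cells, against 29.5% and 28.0% of all genes. It lowered Tnfrsf1a (-0.74) and Fas (-0.39) in WT and Tnfrsf10b (-1.53) in 3xGrk-/- cells, against 30.8% and 27.4% lower, and of 5 interactions called, against 32.5% of all genes, those of Tnfrsf1a (1.13) and Tnfrsf10b (-1.19) were the largest. With library size alone as scaling 3 genes were higher and 1 lower between the genotypes without LPS and 6 and 3 with LPS, and LPS raised 4 and lowered 4 in WT and raised 4 and lowered 3 in 3xGrk-/- cells. Fasl was at or near 0 throughout.

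Of 12 genes for p53 and its targets, a list to which Bbc3, Pmaip1 and Bax would also belong, 11 were tested between the genotypes. Without LPS 4 were higher and 5 lower in 3xGrk-/- cells, and with LPS 1 was higher and 9 were lower, with a median difference of -0.68 on the log2 scale against -0.0066 for all genes. Of all genes 22.1% were higher and 22.7% lower without LPS and 24.7% and 24.0% with LPS, and library size alone as scaling gave 2 higher and 6 lower without LPS and 1 and 10 with LPS for the list. The lower genes with LPS were led by Perp (-2.37), Eda2r (-2.08) and Sesn2 (-1.21), a stress-induced regulator of mTORC1. Trp53 itself was lower in both conditions (-0.40 and -0.68). Mdm2, a p53 target and the ligase that degrades p53, was higher in both: it had 142 and 143 CPM in unstimulated WT, 194 and 192 in unstimulated 3xGrk-/-, 165 and 170 in LPS-stimulated WT and 347 and 346 in LPS-stimulated 3xGrk-/- libraries (1.05 with LPS, adjusted p = 6.52e-12). LPS raised 4 and lowered 7 of the 12 genes in WT, against 29.5% and 30.8% of all genes. Eda2r (1.54), Perp (0.79) and Phlda3 (0.64) rose most there, and Gdf15 (-3.32, at no more than 16 counts in any library), Aen (-0.83) and Zmat3 (-0.66) fell most. In 3xGrk-/- cells LPS raised 2 and lowered 8, against 28.0% and 27.4%, and Zmat3 (-1.15), Aen (-0.94) and Sesn2 (-0.91) fell most. Interactions were called for 9 of the 12 genes, 7 negative, against 32.5% and 16.0% of all genes. The negative ones were led by Phlda3 (-1.30), Eda2r (-0.98) and Sesn2 (-0.67), and the positive ones were those of Mdm2 and the barely expressed Gdf15. Gdf15 went with LPS from a mean of 1.79 to 0.155 CPM in WT and from 1.06 to 1.75 CPM in 3xGrk-/- cells.

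Enzymes that set the stability of the MCL1 and BIM proteins were a list of 6, of which 4 passed the filter. Huwe1, a ubiquitin ligase of MCL1, was lower in 3xGrk-/- cells with LPS (-0.32, adjusted p = 9.45e-05), with 578 and 582 CPM in WT and 458 and 472 CPM in 3xGrk-/- libraries. Btrc was the only gene of the list called without LPS (0.34, adjusted p = 0.0301). With library size alone as scaling it lost that call (0.26, adjusted p = 0.114) and Huwe1 was called lower (-0.12, adjusted p = 0.00337). Fbxw7 and Usp9x were called in neither comparison of the genotypes. LPS raised 2 of the 4 in WT (Btrc 0.54 and Fbxw7 0.38) and 1 in 3xGrk-/- cells (Fbxw7 0.34), against 29.5% and 28.0% of all genes, and lowered Huwe1 in both (-0.15 and -0.43) and Usp9x in 3xGrk-/- cells (-0.21). That scaling gave 1 raised and 2 lowered in WT and 0 raised and 2 lowered in 3xGrk-/- cells. RNA levels do not give the amounts of these proteins. As medians on the log2 scale, the difference between the genotypes without and with LPS was -0.0024 and 0.13 for the other BCL2 family genes, 0.051 and -0.17 for the apoptosome and executioner genes, 0.19 and -0.0023 for the inhibitors of apoptosis, 0.12 and 0.21 for the death receptor and necroptosis genes, -0.17 and -0.68 for the p53 list and 0.090 and -0.11 for these enzymes, against -0.0017 and -0.0066 for all genes.

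**Figure D5:**
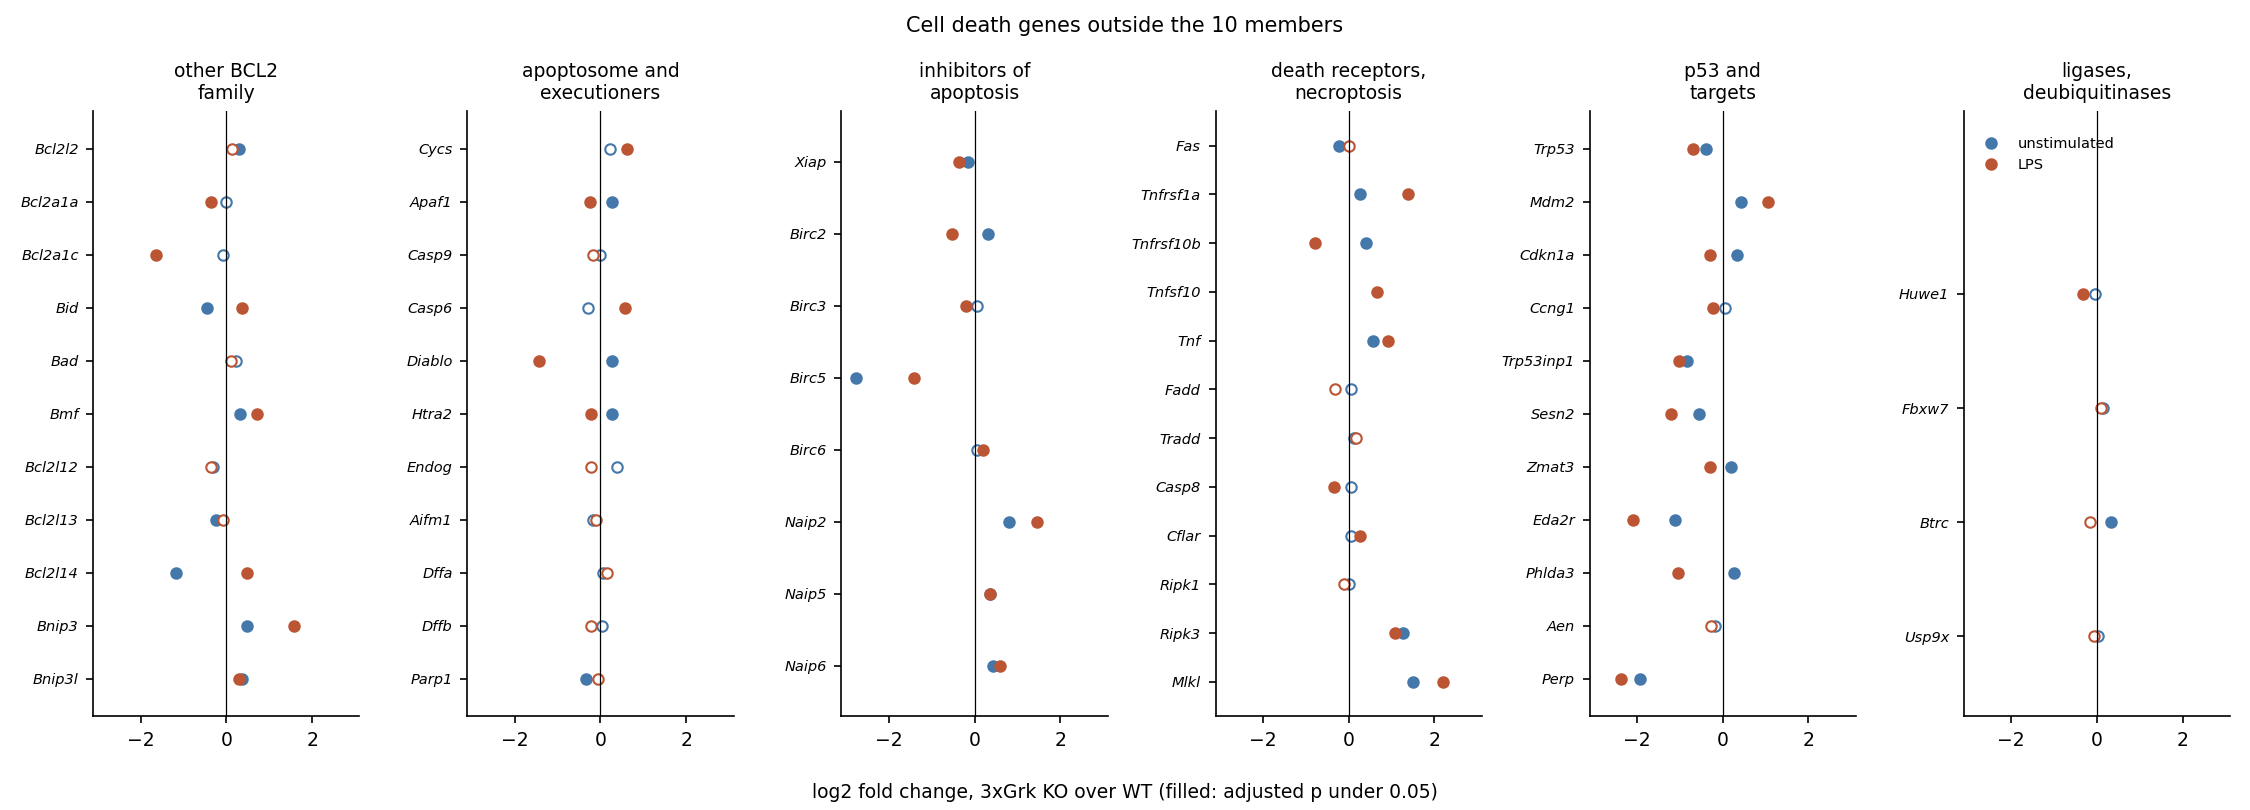
Difference between 3xGrk KO and WT cells on the log2 scale for the tested genes of 6 lists outside the 10 genes, without LPS in blue and with LPS in red, filled where the adjusted p was under 0.05. In the p53 panel 9 of 11 red points are filled and left of 0 and only Mdm2 is filled to the right, and in the second panel Diablo lies at -1.43 with LPS.

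Markers of the labelled dendritic cells were present, and those of several cell types moved with the same groups. Summed over 8 genes, dendritic cell markers stood at 25208 and 25450 CPM in unstimulated WT, 13270 and 12986 in unstimulated 3xGrk-/-, 16076 and 17641 in LPS-stimulated WT and 14242 and 13965 in LPS-stimulated 3xGrk-/- libraries. Most of this sum came from H2-Aa, H2-Ab1, H2-Eb1 and Cd74, with Cd74 alone at a mean of 11952 CPM in unstimulated WT, so that it describes mainly these genes. In 3xGrk-/- cells 5 of the 8 were lower and 3 higher without LPS (Flt3 0.95, Ccr7 0.24 and Itgax 0.19). With LPS 6 were lower and 2 higher (Itgax 2.34 and Flt3 1.35). Macrophage markers summed to 968 and 939, 1438 and 1383, 336 and 338, and 2426 and 2466 CPM in the same order, with 4 of 8 higher and 4 lower without LPS and all 8 higher with LPS. Neutrophil markers summed to 742 and 698, 532 and 515, 335 and 391, and 186 and 202 CPM, with 5 and 6 of 8 lower in 3xGrk-/- cells. Eosinophil markers, 5 genes, summed to 905 and 961, 57.6 and 54.0, 896 and 966, and 42.4 and 36.2 CPM, with 4 and 5 of 5 lower. Mast cell and basophil markers lay between 58.9 and 83.9 CPM, 2 of 4 tested being lower in either condition. Lymphocyte and erythroid markers summed to at most 1.72 and 0.382 CPM, none was tested, and Hba-a1 and Hba-a2 were at 0 in every library.

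The sums of eosinophil and neutrophil markers were thus lower in 3xGrk-/- cells. So were Bcl2 and Bbc3 in both conditions, Bcl2l11 and Pmaip1 without LPS, and Bcl2l1, Bcl2a1b, Bcl2a1d and Bax with LPS. Bcl2l1, Mcl1, Bax and Bak1 without LPS and Bcl2l11 with LPS were higher. The macrophage sum was higher, but without LPS Fcgr1 (-0.64), C1qa (-1.61), C1qb (-1.94) and C1qc (-1.88) were lower and the other 4 of its 8 genes higher. The part of these cell types in the differences of the BCL2 family was not tested. In WT cells LPS lowered 1 of the 5 eosinophil markers (Siglecf, log2 -0.48, adjusted p = 0.00768) and raised 1 (Ccr3, 0.72, adjusted p = 0.00192), and Prg2 (-0.025), Epx (0.045) and Il5ra (0.045) were not called. In 3xGrk-/- cells Siglecf alone of the 5 was called (-2.69). The macrophage sum was highest in LPS-stimulated 3xGrk-/- cells, as was Bcl2l11. In WT, however, LPS lowered the macrophage sum and raised Bcl2l11. Without LPS that sum was higher and Bcl2l11 lower in 3xGrk-/- than in WT cells. Mcl1 was highest in LPS-stimulated 3xGrk-/- cells in CPM, but as TPM its mean was lowest there (659 ± 41.9, SD, n = 2).

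As a description of likeness, the 3 genes with the highest Pearson r of log2 CPM to each member over the 8 libraries were taken from 9149 expressed genes. The 8 libraries form 4 groups and share the same scaling, so that r describes mainly the 4 group levels. Bcl2 was closest to Pacsin1 (r = 0.989), Pnkd and the eosinophil marker Siglecf, and Bcl2l1 to Actr8 (r = 0.996), Hcls1 and Gorasp2. Bcl2a1b was closest to Stat5a (r = 0.997), Rnf180 and Chmp5, and Bcl2a1d to Dnajc12 (r = 0.999), Stat5b and Rassf2. For Bcl2l11 the closest genes were Il23r (r = 0.999), Mdh1 and AW112010, and for Bbc3 Sigirr (r = 0.993), Sesn2 and Ccnd3. Mcl1 was closest to Bdp1 (r = 0.986), Mfsd8 and Bloc1s3, Bax to Zfp251 (r = 0.949), Bcor and Sarnp, Bak1 to Txndc17 (r = 0.998), Gpr107 and Traf3ip2, and Pmaip1 to Hjurp (r = 0.966), Dennd2a and Rprd1b. Among the members themselves, Bcl2 was most like Bbc3 (r = 0.939) and Bcl2a1b most like Bak1 (r = 0.985), so that a survival and a death gene shared a pattern in both cases.

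A spread as small as that of these libraries bears on every call. With a coefficient of variation of 0.1 imposed on all genes, Mcl1, Bax, Bak1, Bcl2l11 and Bbc3 lost their calls between the genotypes without LPS, Bcl2a1b and Bax those with LPS, Mcl1 its response in both genotypes, Pmaip1 that in 3xGrk-/- cells, and Bcl2a1b, Bcl2a1d, Bax and Bak1 their interactions. Where a coefficient of variation of 0.4, typical of unrelated individuals, was imposed on all genes in place of the measured one, only Bcl2 with LPS (adjusted p = 0.00536), the response of Bcl2l1 in WT (adjusted p = 0.0321) and the responses of Bcl2 and Bcl2l11 in 3xGrk-/- cells (adjusted p = 0.00330 and 0.0296) remained past the threshold among the 10 genes.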

How the data were processed

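Libraries were made with a TruSeq Stranded mRNA protocol. The authors aligned the reads to GRCm38 (mm10) with STAR within snakePipes and counted them per gene with featureCounts; the annotation release and strand setting are not given in the sources used here. The deposited values are raw read counts per gene, in 1 table for unstimulated and 1 for LPS-stimulated libraries, with 1 column per library. Of 47937 gene IDs, 47310 matched a symbol in GENCODE M21; 67 symbols were shared by several IDs, and 0.0468% of counts lay on IDs without a symbol. Coordinates and lengths are those of M21, promoters those of RefSeq GRCm38.p6.

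Genotypes were compared within each table, and the responses to LPS and the interaction in 1 fit of all 8 libraries, with edgeR 4.0.16 (TMM scaling, filterByExpr, glmQLFit and glmQLFTest) in R 4.3.3 and an adjusted p (Benjamini-Hochberg over all genes tested) under 0.05. CPM were scaled by TMM over all 8 libraries. Each SE came from the log2 fold change, without a prior count, and the square root of its F value. The fits were tested on simulated data. DESeq2 1.42.0, other scalings, filters and spreads, a replicate block and leaving out each library were tried as alternatives. From each other list, up to 3 genes past the threshold with the largest change in each direction were named, though not in every comparison, and every other BCL2 family gene. The members and lists were chosen with earlier results of these data known. Of the apoptosome and executioner list, 11 genes are given, and other genes of it are not reported here.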

Additional observations from a re-analysis of the deposited data

Results flagged for a closer look

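The response to LPS differed between 3xGrk-/- and WT cells, by the test of the interaction across all genes with edgeR, for 9 of the 10 BCL2 family genes, while 32.5% of all genes had such a difference. As the log2 difference between genotypes with LPS minus that without, the values were -1.76 for Bcl2, -1.79 for Bcl2l1, -0.33 for Bcl2a1b, -0.38 for Bcl2a1d, -0.43 for Bax, -0.25 for Bak1, 0.69 for Bcl2l11, -0.82 for Bbc3 and 1.01 for Pmaip1. Bcl2l1 and Bcl2l11 were called in opposite directions without and with LPS. Bax was too, but its call with LPS was lost without replicate 2 of LPS-stimulated WT (-0.10), and the interaction of Bak1 was lost on leaving out any of 6 libraries. At an imposed coefficient of variation of 0.1 the interactions of Bcl2a1b, Bcl2a1d, Bax and Bak1 lost their calls. Since the 10 genes were chosen with earlier results of these data known, their share against that of all genes is a description and no independent test.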

How the results depend on the processing

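Of 790 values of the 10 genes under the alternatives, 689 kept direction and side of the threshold, 83 lost their call, 7 gained one and 11 changed sign. The replicate block changed no call and no sign in 50 values (for Bcl2 with LPS it gave -2.41, against -2.41). Deviations of libraries with the same number correlated by -0.0184 to 0.0327. These values cannot tell whether libraries with the same number share a mouse or culture, and no label says so. RLE scaling and no filter also changed no call. DESeq2 called 5 genes without LPS (2 higher), and 2828 genes of all without LPS, 3665 with LPS and 2457 in the interaction, against 5369, 5754 and 4070. Library size alone as scaling left 1 gene higher without LPS and moved the share of higher genes among all calls from 49.3% to 35.8% without LPS, from 50.7% to 40.9% with LPS, from 49.0% to 31.1% in the WT response and from 50.5% to 30.2% in the 3xGrk-/- response, with medians of all genes down to -0.23; Mcl1 turned to -0.039 in the WT and -0.066 in the 3xGrk-/- response, Bax to -0.16 in the former and Bcl2l1 to -0.20 in the latter. A fit of all 8 libraries called 5 genes without LPS (1 higher). A coefficient of variation of 0.1 called 3 genes without LPS (1 higher, 2 lower; 2905 of all) and 5 in the interaction (3 lower; 2161 of all). At 0.4 the calls among the 10 genes were 0 without LPS (0 higher, 0 lower), 1 with LPS (0 higher, 1 lower), 1 in the WT response (1 higher, 0 lower), 2 in the 3xGrk-/- response (1 higher, 1 lower) and 0 in the interaction (0 higher, 0 lower), and 448, 782, 1110, 850 and 72 of all genes. A minimum of 10 counts in every library turned the interaction of Mcl1 to 0.013, and summing the A1 copies the Bcl2a1d difference without LPS to 0.013. Leaving out 1 library gave 5 to 8 calls (1 to 4 higher) without LPS and 5 to 10 (1 to 3 higher) with LPS; it moved the Bcl2a1d difference without LPS between -0.099 and 0.064, the interaction of Mcl1 between -0.075 and 0.059, the response of Bcl2l1 in 3xGrk-/- between -0.038 and 0.079 and that of Bax in WT between -0.080 and 0.19. With the longest transcript as length, the shares of the survival set were 0.479% and 0.171% for Bcl2 in unstimulated and LPS-stimulated WT, 2.52%, 3.77%, 5.38% and 2.98% for Bcl2l1 in unstimulated WT, unstimulated 3xGrk-/-, LPS-stimulated WT and LPS-stimulated 3xGrk-/-, 24.8% for Mcl1 in unstimulated 3xGrk-/-, 25.1% for Bcl2a1b in LPS-stimulated WT, and 46.5%, 52.9% and 49.2% for Bcl2a1d in unstimulated 3xGrk-/-, LPS-stimulated WT and LPS-stimulated 3xGrk-/-. Apart from these constructions the cause was not tested. At 14 to 23 counts, the fold of Bcl2 with LPS is the least precise of the 10.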
